A study of Mus musculus with 10 samples.

Results

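The genes described here encode the nuclear subunits of the 5 complexes of oxidative phosphorylation, taken by name from RNA-seq of mouse plasma cells and of the naive B cells they descend from. A gene was a member when its symbol began with Nduf, Sdh, Uqcr, Atp5 or Cox4 to Cox8 and it reached 1 TPM (transcript abundance normalised for transcript length and library size) in at least 1 of the 2 RNA libraries. These were 88 genes, of 12915 genes at that level and 26434 gene symbols in all; 93 symbols carried such a name with no minimum. By role, 78 members were core subunits, meaning structural parts of a complex, 6 were listed as assembly factors, and 4 were in neither list. The 5 names under the minimum were Cox7b2, Cox8b, Cox8c and Atp5l-ps1, all listed at 0 in both libraries, and Ndufa4l2, with 0 TPM in naive and 0.582 TPM in plasma.

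The study covers 10 samples of these cells, and 2 of them are RNA libraries, and its title concerns contacts between chromosomes and the unfolded protein response. Both RNA libraries came from wild-type C57BL/6 mice. The naive library was made from spleen cells sorted ex vivo as CD23+IgD+. For the plasma library the labels conflict: the source describes plasma cells sorted after activation in culture, with CD23-selected splenocytes as the starting cells, whereas the extraction text describes bone marrow cells sorted as CD138+ and lacking B220, IgD, CD4, CD8, Gr1 and Ter119. Which of these it was cannot be told from the labels, and the labels state neither age nor sex of the animals. In both, mRNA was selected with Dynabeads, copied with random hexamers and strand-marked with dUTP.

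With 1 library per group there is no replicate check, no test and no p-value for any difference below. The intervals given are exact 95% Clopper-Pearson intervals from the estimated counts, computed without a pseudocount, which cover counting error only and treat estimated counts as independent reads. The libraries held 36995177 (naive) and 43457786 (plasma) estimated counts. Markers matched the labelled cells in the main: 8 of 9 naive B markers were at least 2-fold lower in plasma, with Fcer2a, which encodes CD23, at 1062 TPM in naive and 6.78 in plasma. Of 8 plasma cell markers at 5 TPM or more, 6 were higher, with Prdm1 at 2.29 and 249 TPM, whereas Sdc1, which encodes CD138, was listed at 11.1 TPM in naive and 5.38 in plasma. Marker genes of other blood cells were more abundant in the naive library: the summed level was 113 against 5.16 TPM for 12 T and NK cell genes, 149 against 2.32 TPM for 10 myeloid genes, and 84.1 against 3.31 TPM for 10 erythroid and platelet genes. None of these was at 0 in naive, and 5, 1 and 6 of them were at 0 in plasma, Cd3e and Hba-a1 among them. In bulk RNA, fewer cells of a type and less RNA per cell cannot be told apart, and the part of these other cells in the results was not tested. The libraries also differed in sex-linked transcripts, with Xist at 0.383 TPM in naive and 128 TPM in plasma and the Y-linked Eif2s3y at 104 and 0 TPM, so that sex and cell type cannot be told apart.

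Oxidative phosphorylation takes place in the inner mitochondrial membrane. Complexes I (NADH dehydrogenase) and II (succinate dehydrogenase) pass electrons to ubiquinone, complex III (cytochrome bc1) passes them to cytochrome c, complex IV (cytochrome c oxidase) passes them to oxygen, and complex V (ATP synthase) uses the proton gradient to make ATP. Most subunits are encoded in the nucleus and imported, a few by mitochondrial DNA, and complex II is wholly nuclear. Plasma cells secrete antibody at high rates, and their survival is known to depend on mitochondrial respiration.

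Nuclear genes of respiration are textbook targets of the transcription factors NRF1, GABP (an ETS factor), YY1 and the estrogen-related receptors (ERR), and their promoters show which letters the members share. RefSeq promoters of the GRCm38.p6 build, running from 250 bases before to 50 bases after the start site, matched 65 of the 78 core subunits and 74 of all 88 members. Searched on both strands, the NRF1 letters GCGCANGCG stood in the promoter of 30.8% of the core subunits (20 of 65) and of 7.03% of all 27025 genes with a promoter. YY1 letters (AAGATGGC) were present in 15.4% against 3.19% (1.54% against 1.83% when the window ended at the start site), ETS letters (CCGGAAGT) in 7.69% against 4.31%, ERR letters (TCAAGGTCA) in 3.08% against 0.466%, and the E-box CACGTG in 9.23% against 8.09%. At least 1 of the NRF1, ETS and YY1 strings was found for 49.2% of core subunits and 13.2% of all genes. Median GC content of the promoters was 58.7% for core subunits and 53.3% for all genes, and its part in these shares was not tested. All genes with a promoter were counted, whether or not they were expressed in these libraries. The part of that difference in the shares was not tested either.

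The 250 bases upstream of 4 members show this range: Sdha and Ndufb4, with 3 NRF1 matches each and among the lowest plasma-to-naive ratios of their groups; Cox6a1, also with 3; and Ndufa1, with none of the 5 strings and the highest ratio in complex I. Capitals mark NRF1 matches; the letters read the same on both strands in part, so 2 matches can share a run.
Sdha, chr13:74350241-74350490, minus strand: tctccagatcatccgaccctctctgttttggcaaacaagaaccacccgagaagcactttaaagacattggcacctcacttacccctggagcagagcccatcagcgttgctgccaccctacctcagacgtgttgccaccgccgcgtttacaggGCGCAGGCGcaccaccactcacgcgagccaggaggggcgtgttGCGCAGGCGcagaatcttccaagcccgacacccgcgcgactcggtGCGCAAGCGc
Ndufb4, chr16:37654369-37654618, minus strand: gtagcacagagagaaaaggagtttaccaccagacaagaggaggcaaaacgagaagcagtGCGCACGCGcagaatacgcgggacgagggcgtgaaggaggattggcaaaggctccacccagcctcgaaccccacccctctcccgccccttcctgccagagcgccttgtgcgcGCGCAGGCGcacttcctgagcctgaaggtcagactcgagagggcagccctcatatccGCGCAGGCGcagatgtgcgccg
Cox6a1, chr5:115348959-115349208, minus strand: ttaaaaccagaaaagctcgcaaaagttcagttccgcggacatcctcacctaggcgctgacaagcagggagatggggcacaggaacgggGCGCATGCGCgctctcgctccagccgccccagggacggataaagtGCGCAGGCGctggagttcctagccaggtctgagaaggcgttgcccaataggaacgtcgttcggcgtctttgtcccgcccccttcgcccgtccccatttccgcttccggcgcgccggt
Ndufa1, chrX:37191239-37191488, minus strand: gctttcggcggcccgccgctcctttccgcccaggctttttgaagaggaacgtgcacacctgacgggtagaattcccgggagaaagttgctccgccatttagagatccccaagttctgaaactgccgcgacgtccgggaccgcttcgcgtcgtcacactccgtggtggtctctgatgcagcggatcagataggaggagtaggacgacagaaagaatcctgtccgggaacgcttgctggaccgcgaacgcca
A match is a description of letters and not a bound site. These 4 promoters do not stand for the rest. Over the core subunits, the median ratio on the scale defined below was 0.99 with the NRF1 letters and 1.07 without, and the ranges overlapped.

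In TPM, the nuclear subunits were as abundant in the plasma library as in the naive library, while most other genes had lower values there. The summed level of the 88 members was 11280 TPM in naive and 11710 TPM in plasma, or 1.13% and 1.17% of all TPM. Immunoglobulin genes took 5.03% of naive and 34.8% of plasma TPM, and among the remaining transcripts the members made up 1.19% and 1.80%. Because TPM is a share of a fixed total, ratios are given here as log2((plasma TPM + 1)/(naive TPM + 1)) minus the median of that value over the 7488 genes that reached 5 TPM in each library. That median was -0.99, and all ratios below are on this centred log2 scale unless said otherwise; without centring each is lower by that amount. The pseudocount of 1 pulls the uncentred ratio of genes with low levels towards 0, and so their centred ratio towards 0.99. This can raise as well as lower a centred ratio. Atp5s, for example, was at -0.19 with the pseudocount and at -0.41 without.

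The members' median ratio was 1.02 (quartiles 0.64 and 1.32), beside -0.13 (quartiles -0.78 and 0.59) for all genes at 1 TPM or more. Of the 86 members at 5 TPM or more, 44 (51.2%) were at least 2-fold higher in plasma, against a background of 16.0% of 10191 genes at that level. Only Atp5sl was at least 2-fold lower, against a background of 22.0%. The excess of higher members depended on the scaling. Without centring 5 members (5.81%) were higher against 7.75% of all genes, with centring on genes at 50 TPM or more in both libraries 6 (6.98%) against 9.16%, and with centring within classes of transcript length 11 (12.8%) against 15.4%. Leaving out or changing the centring constant shifts every gene alike, so it cannot change the gap between the members' median and that of all genes. Within length classes, where the gap could change, the members' median was 0.48 and that of all genes -0.11. For the 78 core subunits the median was 1.05, with 43 of the 76 at 5 TPM or more being higher and 0 lower. Without centring, the core median was 0.06 and the members' 0.03, against -1.12 for all genes. The members were thus close to level between the libraries in TPM, and their gap to all genes was the same by construction. The spread among members was narrower than among genes in general, with an interquartile range of 0.68 against 1.37. Naive and plasma levels of the 76 core subunits followed each other across genes (Pearson r = 0.88, Spearman rho = 0.89 of log2 level, a description over genes of the same 2 libraries).

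**Figure D1:**
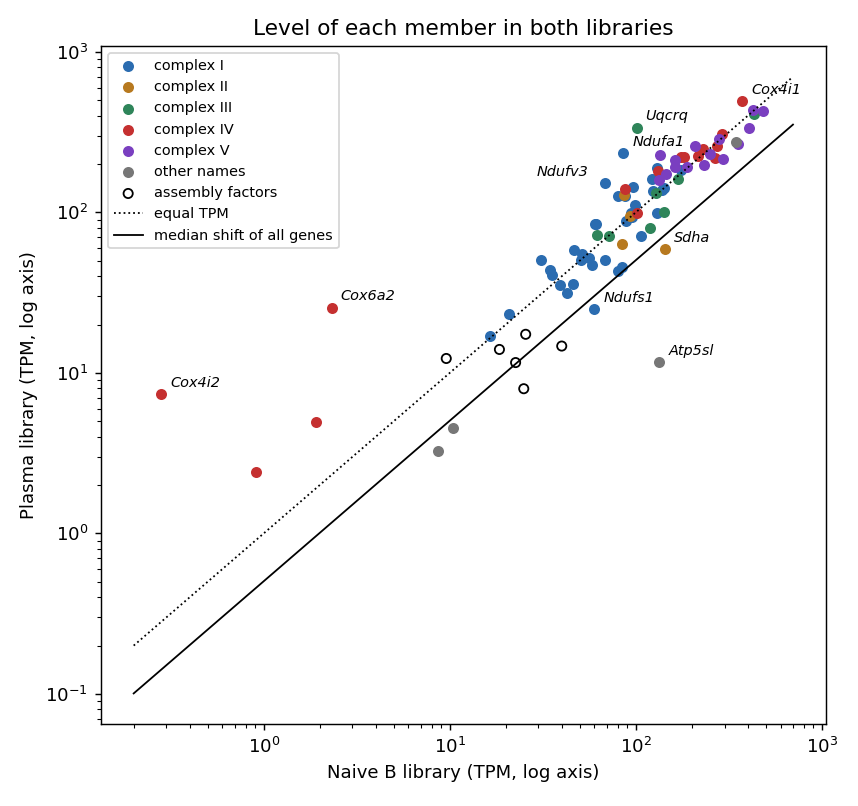
TPM of each of the 88 members in the naive B library (horizontal, log axis) and the plasma library (vertical, log axis), 1 point per gene, with filled colours for the complexes, grey for other names and open circles for assembly factors. Most core subunits lie near the dotted line of equal TPM and above the solid line, which marks the median shift of all genes (-0.99 on the log2 scale), while Atp5sl lies far under both.

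**Figure D2:**
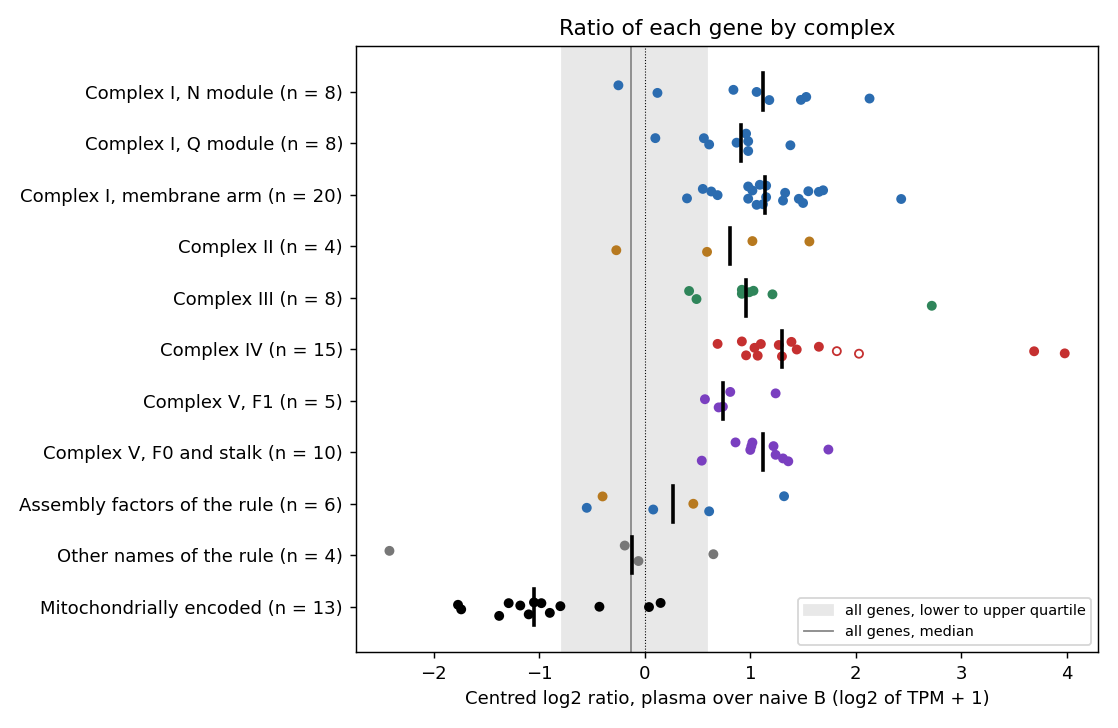
Centred log2 ratio of plasma over naive B for each gene (1 point) by complex, with the group median as a black bar and all genes at 1 TPM or more as a grey band (quartiles) and line (median). Open points had less than 5 TPM in both libraries. Most core subunits of complexes I, III, IV and V lie right of the grey band, most assembly factors lie within it, and mitochondrially encoded subunits lie left of 0 except for 2 genes.

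Complex I, which oxidises NADH and pumps protons, had 36 core subunits among the members, all at 5 TPM or more. Of these, 20 were at least 2-fold higher and 0 lower, with a median of 1.06 and a summed level of 2808 TPM in naive and 3170 in plasma. The N module, the tip that binds NADH, had a median of 1.12 (5 of 8 higher). The Q module, which reduces ubiquinone, had a median of 0.92 (1 of 8, or 12.5%, higher, near the 16.0% of all genes). The membrane arm had a median of 1.13 (14 of 20 higher). The ranges of the 3 parts overlapped. Counts here and in the other complexes stand beside 16.0% of all genes at least 2-fold higher and 22.0% at least 2-fold lower.

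Within the N module, Ndufv3, a small accessory subunit of the flavoprotein part, was at 68.4 TPM in naive and 152 in plasma, a ratio of 2.13. Ndufa2 was at 130 and 190 TPM (1.53). At the other end, Ndufs1, the large iron-sulfur subunit, was at 59.9 and 24.9 TPM, a ratio of -0.25, and was the only complex I core subunit with a ratio under 0. Ndufv1, which carries the flavin and the NADH site, was at 84.8 and 46.0 TPM (0.12), and its partner Ndufv2 at 94.7 and 99.4 TPM (1.06). In the Q module, Ndufa7 had the highest ratio (122 and 161 TPM, 1.38), and Ndufa6 (139 and 138 TPM) and Ndufs3 (88.6 and 88.1 TPM) were both at 0.98. The lowest were Ndufs7, an iron-sulfur subunit near the quinone site, at 80.3 and 43.1 TPM (0.10), and Ndufa5 at 68.4 and 50.8 TPM (0.56).

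In the membrane arm, Ndufa1, a small X-linked subunit needed for assembly, had the highest ratio at 2.43 (interval 2.32 to 2.56), with 85.5 TPM in naive and 233 TPM in plasma. Ndufb6 followed at 30.8 and 50.6 TPM (1.69). The lowest were Ndufb10 at 107 and 71.2 TPM (0.40) and Ndufb4 at 42.9 and 31.6 TPM (0.55). The most abundant were Ndufa3 (174 and 184 TPM, 1.06) and the X-linked Ndufb11 (142 and 141 TPM, 0.98). With Cox7b of complex IV (102 and 99.5 TPM, 0.96) the 3 X-linked members had a median of 0.98, so 1 of them stood above the other two, and the part of the libraries' difference in Xist was not tested.

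Complex II, which joins the respiratory chain to the tricarboxylic acid cycle, had 4 subunits with ratios from -0.27 to 1.56. Sdha, the flavoprotein that oxidises succinate, was at 143 TPM in naive and 59.0 in plasma, the lowest ratio of all core subunits (-0.27, interval -0.34 to -0.24). Sdhb, the iron-sulfur subunit, was at 93.5 and 95.6 TPM (1.02). Of the membrane anchors, Sdhc was at 86.2 and 129 TPM (1.56) and Sdhd at 84.0 and 63.6 TPM (0.59). The anchors, which pair with each other in the protein, thus lay on different sides of the 2-fold line.

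Complex III had 8 nuclear members, 3 of them at least 2-fold higher, and a median of 0.96. Uqcrq, a small subunit next to cytochrome b, stood apart, with 101 TPM in naive and 337 TPM in plasma and a ratio of 2.72 (interval 2.62 to 2.84). Uqcr11, another small subunit, was at 62.1 and 72.6 TPM (1.21). The 2 large core proteins were lowest: Uqcrc1 at 119 and 79.5 TPM (0.42) and Uqcrc2 at 142 and 101 TPM (0.49). Relative to genes of the same length class they were not lowest, at 0.34 and 0.42. On that scale Uqcrb (-0.08) and Uqcrh (-0.07) were below them, and Uqcrfs1 (0.78) and Uqcrq (1.72) above. The hinge protein Uqcrh, the most abundant, was at 430 and 411 TPM (0.92), Uqcrb at 169 and 161 TPM (0.92), and the Rieske iron-sulfur protein Uqcrfs1 at 71.4 and 71.6 TPM (0.99). Cyc1, the cytochrome c1 subunit whose name falls outside the rule, was lower than these at 106 and 60.2 TPM (0.19).

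Complex IV had the highest median of the complexes, 1.30, with 10 of the 13 subunits at 5 TPM or more being higher. This rested in part on tissue-specific paralogs with low levels: among the 11 subunits at 50 TPM or more in a library, the median was 1.10 with 8 higher. The main isoform of subunit 4, Cox4i1, was at 374 TPM in naive and 493 in plasma (1.39). Cox7a2 was at 87.7 and 139 TPM (1.65), Cox7c at 292 and 310 TPM (1.07), Cox6b1 at 272 and 260 TPM (0.92), and Ndufa4, once assigned to complex I and now placed in complex IV, at 266 and 217 TPM (0.69).

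Paralogs known from lung, heart, muscle or testis were at low levels. Cox4i2 and Cox7a1 reached 1 TPM in plasma alone, and Cox6a2 reached 5 TPM in plasma alone, so the minimum levels favour higher values in plasma among the paralogs listed. Cox6a2, the heart and muscle form of subunit 6A, was at 2.32 TPM in naive (30 estimated counts) and 25.5 TPM in plasma (615 counts), a ratio of 3.98 and the highest of all members. In the same libraries the general form Cox6a1 was at 182 and 222 TPM (1.27). Cox4i2, the lung-enriched form of subunit 4, was at 0.281 TPM from 4 estimated counts in naive and 7.37 TPM from 199 counts in plasma (3.69; interval without pseudocount 4.32 to 7.59). The testis form Cox6b2 was at 1.90 and 4.98 TPM, and Cox7a1, the heart and muscle form, at 0.908 and 2.40 TPM, both under the level needed for a call. The testis forms Cox7b2 and Cox8c and the muscle form Cox8b were listed at 0 in both libraries. The longest run of identical bases between reference transcripts of the paralogs was 14 for Cox4i1 and Cox4i2 and 12 for Cox6a1 and Cox6a2.

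Complex V was the most abundant, with a summed level of 3866 TPM in naive and 3801 TPM in plasma over 15 subunits, 8 of them higher and 0 lower (median 1.01). The F1 head, which makes ATP, had a median of 0.74 with 1 of 5 higher (20.0%, near the 16.0% of all genes). The F0 part and stalks, which hold the proton channel, had a median of 1.12 with 7 of 10 higher. In F1, the alpha subunit Atp5a1 was at 354 and 265 TPM (0.57), the catalytic beta subunit Atp5b, the most abundant member in naive, at 482 and 426 TPM (0.81), the gamma subunit Atp5c1 at 233 and 197 TPM (0.74), and the epsilon subunit Atp5e at 408 and 335 TPM (0.70). The delta subunit Atp5d was the only F1 gene past the 2-fold line, at 145 and 173 TPM (1.24). Without centring, F1 was at -0.24 and F0 with the stalks at 0.13. Relative to genes of the same length class the order reversed, with F1 at 0.65 and F0 with the stalks at 0.40.

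The c-ring subunit of F0 is made from 3 genes that encode the same mature protein with different import sequences. Atp5g1 was at 135 TPM in naive and 229 in plasma (1.74), Atp5g2 at 429 and 433 TPM (1.00), and Atp5g3 at 250 and 230 TPM (0.86). Atp5g2 was thus the most abundant of the 3 in both libraries, and Atp5g1 had the highest ratio. Although the protein is shared, the reference transcripts have no run of identical bases longer than 21 (Atp5g1 and Atp5g2), 11 (Atp5g1 and Atp5g3) or 8 (Atp5g2 and Atp5g3). Among the rest of F0, Atp5j2 was at 163 and 211 TPM (1.36) and Atp5l, which joins ATP synthase dimers, at 293 and 216 TPM (0.54), the lowest of complex V.

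Assembly factors with names under the rule did not share the subunits' levels. Atp5sl, described below, was not counted with them. Their median was 0.27, with 1 of 6 at least 2-fold higher and 0 lower, beside 16.0% and 22.0% of all genes. Ndufaf2, a complex I chaperone, was at 9.58 TPM in naive and 12.3 in plasma (1.32), whereas Ndufaf4 had the lowest ratio of these (-0.55, from 810 estimated counts in naive and 408 in plasma) and Sdhaf2, which helps insert the flavin into Sdha, at 40.0 and 14.7 TPM (-0.40). Among the 37 measured assembly factors with other names, the median was 0.12 with 5 of 36 (13.9%) higher, near the 16.0% of all genes, and 0 lower. Those with the largest differences were Cox17, a copper chaperone, at 109 and 252 TPM (2.19), Sco1, which delivers copper to complex IV, at 10.2 and 21.7 TPM (2.01), and Cmc2 at 10.0 and 15.6 TPM (1.58).

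The 4 remaining names had a median of -0.13. Atp5sl, renamed Dmac2 in the newer annotation and a factor for the distal membrane arm of complex I, was at 134 TPM in naive and 11.7 in plasma, a ratio of -2.42 and the only member at least 2-fold lower. Cox4nb, renamed Emc8 and part of an endoplasmic reticulum membrane complex, was at 10.4 and 4.53 TPM (-0.06), and Atp5s at 8.63 and 3.27 TPM (-0.19). Cox7a2l, which has been linked to supercomplexes, was at 347 and 274 TPM (0.65).

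Subunits encoded by mitochondrial DNA had lower ratios than their nuclear partners. None of the 13 was at least 2-fold higher and 7 were at least 2-fold lower, beside 16.0% and 22.0% of all genes. The 13 had a median of -1.05 and a summed level of 65230 TPM in naive and 16613 TPM in plasma. The lowest were mt-Nd4l (1455 and 215 TPM, -1.77), mt-Nd4 (3791 and 571 TPM, -1.74) and mt-Nd2 (2013 and 389 TPM, -1.38). The nuclear core median exceeded the mitochondrial median by 2.09 on the log2 scale. Many of the 14 settings could not move this difference, since they shift every gene alike or change only filters or calls. Among those that could, it ranged from 2.04, within length classes, to 2.10, with a pseudocount of 0.1 TPM. How mRNA selection acted on mitochondrial transcripts in each library was not tested.

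Other mitochondrial gene lists lay between these. Their counts stand beside 16.0% of all genes at least 2-fold higher and 22.0% at least 2-fold lower. Among the 17 genes of the tricarboxylic acid cycle and pyruvate dehydrogenase, which feed the chain with electrons, 1 was higher and 0 lower (median 0.26). Those furthest from 0 were Suclg2 (25.8 and 27.2 TPM, 1.06), Mdh2 (145 and 140 TPM, 0.94) and Fh1 (64.2 and 19.0 TPM, -0.72). Of 8 other genes of the chain, 3 were higher (median 0.73): Atpif1, the inhibitor of ATP synthase, at 80.3 and 111 TPM (1.45), Usmg5, a small ATP synthase subunit, at 164 and 190 TPM (1.21), and Etfa, which passes electrons from fatty acid oxidation, at 52.7 and 53.7 TPM (1.01). Of 6 carriers and porins, 1 was higher (16.7%, near the share of all genes), and the median was 0.67. The largest were Vdac3 (98.3 and 104 TPM, 1.07), Slc25a4 (61.6 and 60.2 TPM, 0.95) and Vdac1 (66.7 and 57.0 TPM, 0.76). Cytochrome c, Cycs, was at 9.77 and 6.14 TPM (0.39). When centred within length classes, the median of carriers and porins was 0.53, nearly level with 0.54 for core subunits. That of the tricarboxylic acid cycle list was 0.13.

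No regulator of these genes was past the 2-fold line upwards. Of 12 at 5 TPM or more, 2 were at least 2-fold lower and 0 higher, beside 22.0% and 16.0% of all genes, with a median of -0.66 over 14 measured. Gabpb2 was at 82.6 TPM in naive and 13.1 in plasma (-1.58), Esrra, which encodes ERR alpha, at 32.9 and 7.31 TPM (-1.04), and Tfam, which packages mitochondrial DNA, at 120 and 30.5 TPM (-0.95). Under 5 TPM in both libraries, Ppargc1a was at 2.45 and 0.0712 TPM and Ppargc1b at 3.53 and 0.287 TPM. Their ratios were -0.70 and -0.83 with the pseudocount, and -4.12 and -2.63 without it. Nrf1 itself was at 38.2 and 17.7 TPM (-0.08). Core subunits with the NRF1 letters printed above had a median ratio of 0.99 (20 genes, -0.27 to 1.65) and those without had 1.07 (45 genes, 0.10 to 2.43), and their ranges overlapped.

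Transcript length moved with the ratio in these libraries, and most members are short. Over all 10191 genes at 5 TPM or more, ratio and log2 length had r = -0.29 and rho = -0.27. Over the 76 core subunits they had r = -0.41 and rho = -0.43 (both across genes of the same 2 libraries). All genes of transcripts under 600 bases had a median of 0.62, and those over 5000 bases had -0.66. Against genes of their own length class at 5 TPM or more in a library, 79 of the 86 members were above the class median, by 0.67 in the median. Against genes at 5 TPM or more in both libraries, the set used for centring, 67 of the 86 were above it, by 0.47 in the median. In the class under 600 bases the members' median was 1.09, against 0.62 for genes at that level in a library and 1.00 for genes at that level in both. From 1000 to 1500 bases it was 0.87 against 0.08 and 0.21. The cause of the relation with length was not tested.

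**Figure D3:**
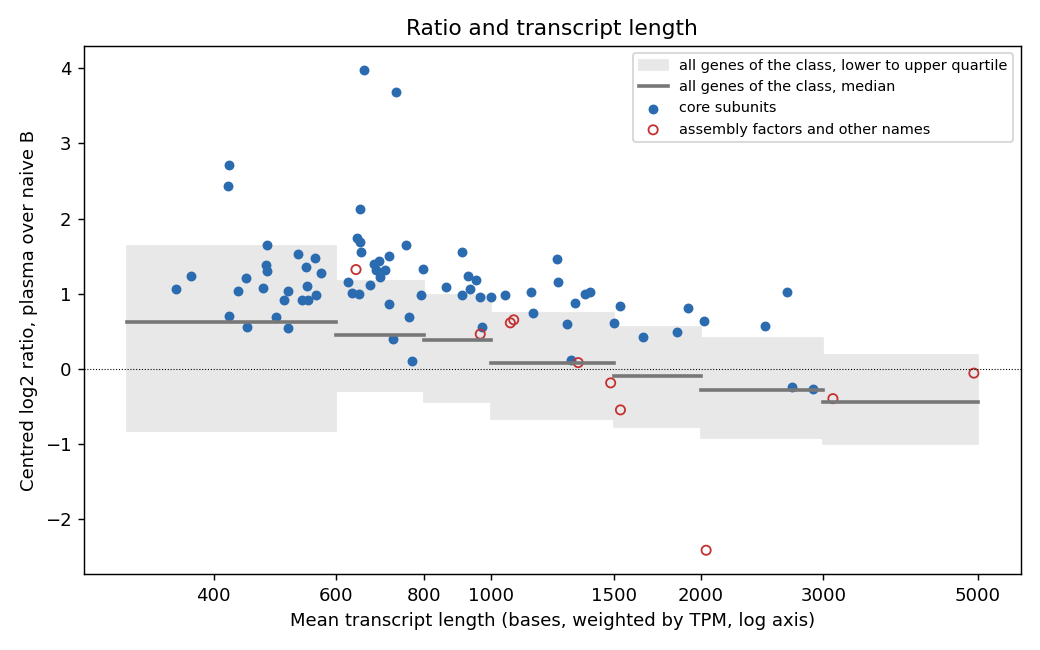
Centred log2 ratio against mean transcript length (log axis) for the members at 5 TPM or more, with core subunits filled and assembly factors and other names open; grey bands and bars are the quartiles and median of all genes at 5 TPM or more in a library in each length class. Both the grey medians and the points are lower at greater length, and 79 of 86 members lie above the median of their class.

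The order of the groups depended on this. Relative to genes of the same length class at 5 TPM or more in both libraries, the medians were 0.60 for complex II, 0.55 for complex I, 0.54 for complex V and 0.28 for complex III. Complex IV was at 0.75 over its 15 subunits, at 0.31 over the 13 at 5 TPM or more and at 0.27 over the 11 at 50 TPM or more, so its place in the order rested on the tissue paralogs. The order of F1 and F0 reversed, with F1 at 0.65 and F0 with the stalks at 0.40.

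Transcript composition differed between the libraries for some members whose gene total was similar. The members had 175 transcripts, and 42 genes had more than 1. In 10 members the share of a transcript at 5 TPM or more differed by 20 percentage points or more, and in 9 the most abundant transcript was not the same. These shares come from the authors' assignment of reads that several transcripts can share, and they carry no error here.

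Some leading transcripts in naive were forms annotated as targets of nonsense-mediated decay, the pathway that removes mRNA with an early stop, and in 3 complex I genes such a form led in naive but not in plasma. For Ndufb8, the form 005 took 57.3% of the gene's TPM in naive (50.2 TPM) and 4.32% in plasma (5.44 TPM), while the coding form 001 went from 24.7 to 117 TPM. For Ndufa7, form 006 took 76.7% in naive and 22.7% in plasma, and form 001 went from 28.4 to 124 TPM. For Ndufs6, form 002 took 51.9% and 22.1%, and form 001 went from 28.0 to 66.3 TPM. The coding forms of these 3 genes therefore differed by more than their gene totals. In 2 other genes a form with that annotation led in both libraries: Ndufa3 form 006 took 78.3% in naive and 94.9% in plasma, the opposite direction, and Atp5f1 form 002 took 80.7% and 67.2%. Over all members the pattern was smaller: 9 transcripts with that annotation reached 5 TPM, 7 of them with a lower share and 2 with a higher share in plasma, and together they took 5.18% of members' TPM in naive and 4.27% in plasma.

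The segments that tell these forms apart shift the reading frame in Ndufb8 and Ndufa7, and in Ndufs6 the segment holds the stop codon of form 002. They are printed from reference transcripts of GRCm38 with flanking coding bases in lower case; capitals mark bases present in only 1 of the 2 forms. The capitals of Ndufb8 (43 bases) are missing from form 005 and those of Ndufa7 (50 bases) from form 006, whereas those of Ndufs6 are the coding part of 61 bases that only form 002 has.
Ndufb8: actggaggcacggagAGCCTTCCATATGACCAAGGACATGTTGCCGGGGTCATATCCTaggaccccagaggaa
Ndufa7: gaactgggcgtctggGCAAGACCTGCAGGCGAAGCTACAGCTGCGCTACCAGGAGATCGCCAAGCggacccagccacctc
Ndufs6: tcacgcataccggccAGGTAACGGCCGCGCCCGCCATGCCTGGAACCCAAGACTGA
The 43 bases of Ndufb8 and the 50 of Ndufa7 are not multiples of 3, whereas the Ndufs6 capitals end with the stop TGA. The coding sequence went from 186 to 84 residues for Ndufb8, from 113 to 40 for Ndufa7 and from 116 to 48 for Ndufs6.

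Ndufv3 has a short and a long form, of 104 and 468 residues, that differ by an exon of 1092 bases, here in frame. The exon starts with the capitals below (60 of its bases), which follow the shared bases in lower case.
Ndufv3: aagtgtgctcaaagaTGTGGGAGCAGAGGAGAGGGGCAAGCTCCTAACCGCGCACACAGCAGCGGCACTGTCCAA
The short form was at 44.7 TPM in naive and 138 TPM in plasma and took 65.3% and 90.9% of the gene, whereas the long form was at 19.6 and 13.2 TPM (28.7% and 8.66%). The high ratio of Ndufv3 thus lay in the short form.

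Other differences lay mostly between coding forms. Atp5h form 001 took 47.6% in naive and 89.7% in plasma, and form 002 took 39.4% and 3.75%. Cox7c form 001 took 28.7% and 62.0%, and the gene was led in naive by form 003 (31.3%), which has a coding sequence in the deposited names but none in the newer annotation. Ndufab1 form 006 took 60.9% and 86.3%. Ndufv1 form 001 was at 0.210 TPM in naive (7 estimated counts) and 21.9 TPM in plasma (1401 counts), while form 003 was at 24.1 and 0.00676 TPM. Atp5sl, the member with the lowest ratio, was led by form 002 in naive (65.0%) and by form 001 in plasma (73.8%). Of the assembly factors, Ndufaf4 form 003 took 25.1% and 64.4%. For Cox4i2, form 001 held all 4 estimated counts in naive, and form 002 took 57.0% in plasma, a difference that so few counts cannot bear.

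**Figure D4:**
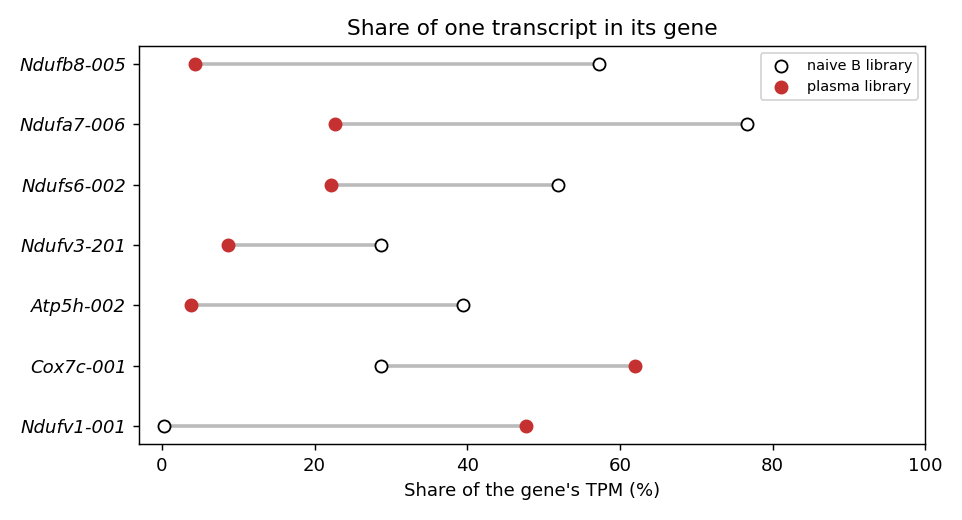
Share of the named transcript in its gene's TPM (%), in the naive B library (open) and the plasma library (filled), for 7 members. The 3 forms annotated as decay targets (Ndufb8-005, Ndufa7-006 and Ndufs6-002) and the long Ndufv3 form were lower in plasma, and Cox7c-001 and Ndufv1-001 were higher.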

How the data were processed

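RNA-seq of 1 naive B and 1 plasma library was used (10 samples in the series; ATAC-seq, ChIP-seq and contact data are not analysed here). The deposited files give, per transcript, an estimated count and TPM; per the submitters' processing notes kallisto was used and mm9 named, with the kallisto version and index settings not given in the sources used here. Per the file headers, length and effective length are also given, and they differ by 49 bases for 99.8% of 61112 transcripts in both. Estimated counts and TPM were summed per gene symbol; Ndufb8 covers 2 gene IDs. Ratios were log2 of TPM + 1, centred on 7488 genes at 5 TPM or more in both libraries, and called at 2-fold with 5 TPM in a library. Intervals used rounded estimated counts. On simulated data with 4-fold changes, calls found 100 of 100 higher and 97 of 100 lower genes and 1 of 9561 unchanged genes. The simulation drew both libraries from the naive levels with counting noise only, apart from the planted changes and raised immunoglobulin genes. It therefore checks the calculation and gives no error rate for calls between these 2 libraries. Annotation and sequences came from a newer GENCODE release of GRCm38 and RefSeq GRCm38.p6, matched by ID or symbol. The members, lists and alternatives were chosen with earlier results of these data known. Named by rule were, in each complex or arm, the 2 highest and 2 lowest ratios and the 2 highest naive levels, members past 2-fold lower, tissue paralogs, X-linked members, assembly factors of the rule past 2-fold, the 3 largest ratios of each other list, and transcripts that lead differently or moved by 20 points; some others are named for their role, and 1 gene the rule picks is not reported here. Python 3.11.15, pandas 2.3.3, scipy 1.17.1, edgeR (TMM factors only) and matplotlib were used.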

Additional observations from a re-analysis of the deposited data

How the results depend on the processing

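With 1 library per group, no replicate could be left out. No paired analysis was possible because each group has 1 library and no test was run. Alternatives that only change the centring constant cannot change the gap between members and all genes. The members' median ratio was 1.02, and it stayed above 0 and above the median of all genes under all alternatives. It was 0.87 with a pseudocount of 5 TPM, 0.03 without centring, 0.30 with centring on genes at 50 TPM or more in both libraries, 0.57 with immunoglobulin genes left out and no centring, 1.37 with edgeR's TMM factors on estimated counts, 1.18 with estimated counts centred likewise, and 0.48 when centred within length classes, an alternative chosen after seeing the data. The summed ratio (1.04) was 0.05, 0.33, 0.60 and 1.26 under no centring, the 50 TPM centring, the immunoglobulin setting and TMM, and 1.08 over core subunits. The 44 members at least 2-fold higher became 5, 6 and 16 in the first 3 of these, 11 within length classes (15.4% of all genes) and 68 at 1.5-fold (24.0% of all genes); the 1 member at least 2-fold lower became 7, 3 and 2, and 0 over core subunits. Over all genes the shares higher and lower, 16.0% and 22.0%, were 7.75% and 57.6% without centring, 9.16% and 47.8% with the 50 TPM centring, 10.5% and 40.0% with the immunoglobulin setting and 24.2% and 16.5% with TMM. The cause of the difference between scalings was not tested. With the window ending at the start site, 1.54% of core promoters held the YY1 letters (1.83% of all genes), against 15.4%, so their excess was lost, and 21.5% held the NRF1 letters (5.86% of all genes), against 30.8%. Depth limits the tissue paralogs, with 4 to 30 estimated counts in naive.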
